A study of Homo sapiens with 6 samples.

Results

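6 single-cell RNA-seq libraries of SK-N-BE(2)-C cells, a long-established neuroblastoma line whose MYCN gene is amplified, were compared by replicate number. They were made with Seq-Well S3, which captures the RNA of single cells on barcoded beads in small wells. The 3 libraries numbered 1 were set against the 3 numbered 2, with treatment as a block. Cells had received DMSO, which serves as solvent control, TSA, which commonly stands for trichostatin A and blocks the enzymatic site of histone deacetylases, or E6R, a compound known here only by that name. The series title speaks of an inhibitor that acts on histone deacetylase complexes other than through the enzyme. Doses, exposure times and what E6R consists of are not given in the sources used here. There was 1 library of each number per treatment. The labels do not say that libraries of 1 number share a culture or a day, so the p-values measure the spread between these libraries, which may be technical. Cells were barcodes with at least 500 genes and at most 20% of unique molecular identifiers (UMIs) from mitochondrial genes: 17589 of 90306 barcodes, 7219 in the replicate 1 libraries and 10370 in the replicate 2 libraries.

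Neuroblastoma lines are known to move between 2 transcriptional states. The adrenergic state is run by the transcription factors of sympathetic neurons, HAND2 and GATA3 among them, and makes the enzymes and granule proteins of catecholamine-storing cells. The mesenchymal state resembles migratory neural crest: cells make extracellular matrix, contractile proteins and targets of the YAP/TEAD, AP-1 and TGF-beta pathways.

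The library sums of cells ranged from 4206366 to 26180262 UMIs, and the median cell held 1054 to 1880 UMIs. The mitochondrial share of the sums was 5.83% and 6.2% in DMSO replicates 1 and 2, 6.08% and 9.71% under TSA, and 1.55% and 1.51% under E6R. In E6R replicate 2, the 1% of cells with the highest counts held 22.5% of the UMIs. The deposited file of TSA replicate 2 carries a mark in its name that the other 5 lack and whose meaning is not given, so counts are also given without that library. Pairs of libraries shared 11 to 58 cell barcodes, where random barcodes would share fewer than 1. The counts did not follow the replicate number. DMSO replicate 2 shared 58 with E6R replicate 2 but 11 with TSA replicate 2. TSA replicate 1 shared 52 with E6R replicate 2 and 38 with DMSO replicate 2, but 16 with DMSO replicate 1. The 2 E6R libraries shared 43. The cause of the sharing was not tested. Cells with a shared barcode made up 0.759% to 2.53% of a library. Without them the comparison gave 203 called genes in place of 163. MYCN stood between 215 and 733 CPM (UMI counts scaled to 1 common library size, with edgeR's trimmed-mean factors, TMM) and PTPRC, the general blood cell marker, had 0 to 9 UMIs per library.

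Genes lower in the replicate 2 libraries included SPARC and COL3A1, which make extracellular matrix, the contractile genes ACTA2 and TAGLN, and the surface receptor PROCR. The granule protein gene CHGB and the vesicle gene CPLX2 were among those higher. Of 16763 genes tested, 163 (0.972%) passed an adjusted p of 0.05 in edgeR's quasi-likelihood test: 128 (0.764%) were lower and 35 (0.209%) higher in replicate 2. Of the lower genes 63 had fallen at least 4-fold, and of the higher genes 5 had risen that far. Counted without a test, 442 genes (2.64%) had all 3 replicate 1 libraries above all 3 replicate 2 libraries, and 395 (2.36%) had the opposite order. The direction was the same under all 3 treatments for 162 of the 163. For genes called lower, the median log2 difference, replicate 2 minus replicate 1, was -2.30 in DMSO, -1.0 in TSA and -2.22 in E6R, and for genes called higher it was 2.02, 0.76 and 1.82. The TSA pair had the smallest difference in both sets, and with 1 pair per treatment this difference between treatments was not tested. The median over all tested genes was 0.01.

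The number of called genes rested on single libraries. Leaving out DMSO replicate 1 left 0 genes called by edgeR (1313 at an unadjusted p under 0.05), and leaving out DMSO replicate 2 left 14, all lower. Without TSA replicate 2 the count was 1360, of which 732 were lower, and without TSA replicate 1 it was 1349. Without E6R replicate 1 it was 104 and without E6R replicate 2 it was 295. A library without its partner gives no information on the replicate difference under the treatment block, so each of these fits rests on 2 pairs. Each of the 35 named genes that passed the test kept its direction in all alternatives that gave it a value. The alternatives reuse these libraries, and 162 of the 163 called genes had the same direction under all 3 treatments. Leaving out 1 library could therefore hardly turn a direction, so the kept directions are no separate support.

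Among 40 mesenchymal genes, 38 were tested. 8 were called lower and 0 higher, where 0.764% and 0.209% of all tested genes were. SPARC, COL3A1, ACTA2, TAGLN, CD44, CCN2 and ANXA1 were among the lower. The median log2 difference of the 38 was -1.11, against 0.01 over all tested genes, and the medians within DMSO, TSA and E6R were -1.40, -0.35 and -1.84. The 3 libraries of each number did not overlap for 11 of the 38 genes, all of them lower in replicate 2 (442 of 16763 tested genes, 2.64%). The list took 0.525% and 0.386% of UMIs in DMSO replicates 1 and 2, 0.621% and 0.393% under TSA, and 0.745% and 0.514% under E6R, a mean difference of -0.199 percentage points ± 0.0523 (SD, n = 3 pairs; exact permutation test, two-sided p = 0.25, the smallest possible with 8 assignments). Leaving out DMSO replicate 1, or DMSO replicate 2, left 0 of the list called by edgeR, and leaving out TSA replicate 1, or TSA replicate 2, gave 24 lower and 2 higher. Without E6R replicate 1 there were 5 and without E6R replicate 2 there were 13, all lower. With DESeq2 14 were called lower and 0 higher. In bulk sums, fewer cells of a kind and less RNA per cell cannot be told apart. The list was composed with earlier results of these data known.

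3 promoters of genes called lower are shown because ACTA2 and CCN2 are textbook targets of contractile and YAP/TEAD regulation and PROCR, a surface receptor, was among the 12 largest falls. Each is the 250 bases before a RefSeq transcript start (GRCh38.p14), written 5′ to 3′ on the gene's strand, with capitals for the TEAD motif GGAATG on either strand. The first is chr6:131951373-131951622 (minus strand), directly before CCN2. The second is chr10:88952774-88953023 (minus strand), before the inner start of ACTA2 and inside an intron of its longer transcript. The window before the outer start of ACTA2 (chr10:88991338-88991587) was searched too, held no match and is not printed. The third is chr20:35171822-35172071 (plus strand), before PROCR, and holds no match.
CCN2: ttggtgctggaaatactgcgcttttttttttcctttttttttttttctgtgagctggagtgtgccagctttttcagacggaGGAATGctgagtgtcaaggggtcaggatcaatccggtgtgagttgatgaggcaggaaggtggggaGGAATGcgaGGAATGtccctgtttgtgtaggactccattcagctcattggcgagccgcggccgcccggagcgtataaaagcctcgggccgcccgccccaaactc
ACTA2: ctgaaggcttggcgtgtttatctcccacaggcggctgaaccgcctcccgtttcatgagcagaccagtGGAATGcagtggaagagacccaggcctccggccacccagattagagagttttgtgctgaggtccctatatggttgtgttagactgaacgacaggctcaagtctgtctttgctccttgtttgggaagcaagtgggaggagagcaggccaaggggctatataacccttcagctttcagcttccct
PROCR: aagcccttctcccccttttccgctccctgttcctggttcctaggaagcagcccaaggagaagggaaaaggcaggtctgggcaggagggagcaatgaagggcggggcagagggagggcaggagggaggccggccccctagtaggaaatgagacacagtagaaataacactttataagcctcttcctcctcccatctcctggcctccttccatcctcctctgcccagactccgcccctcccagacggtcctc
The CCN2 window held 3 matches, ending 164, 99 and 90 bases before the start, and the inner ACTA2 window held 1, ending 178 bases before it. A match is a description of the letters and not a binding site.

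Over the promoters in the table, 98 of the 128 genes called lower had an entry, with 156 starts, and GGAATG was found in 24 of these windows (15.4%). It was found in 1704 of 16903 windows of tested genes (10.1%) and in 11.9% of all 35116 windows. The AP-1 motif TGANTCA was found in 7.69% of the windows of lower genes and 4.77% of those of tested genes. The serum response CArG box was found in 1.28% and 1.11%, and the cyclic AMP element TGACGTCA in 0% and 2.36%. The CArG box was searched only in its strict form CCWWWWWWGG (W for A or T), so variants with a mismatch were not counted. Only 11 of the 35 genes called higher had an entry, with 13 windows, and none of the 4 motifs was found there.

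SPARC, a secreted glycoprotein that binds collagen (chromosome 5, 151661096 to 151687165, GRCh38), stood at 316 and 48.4 CPM in DMSO replicates 1 and 2, 255 and 120 CPM under TSA, and 434 and 66.7 CPM under E6R. All 3 replicate 1 libraries lay above all 3 replicate 2 libraries. The fitted log2 difference was -2.17 (SE 0.295, n = 3 pairs, edgeR adjusted p = 0.015).

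COL3A1, a fibrillar collagen (chromosome 2, 188974320 to 189012746), stood at 42.9 and 4.4 CPM in DMSO, 37.8 and 14.3 under TSA, and 65.2 and 3.72 under E6R. Its ranges did not overlap, and its log2 difference was -2.90 (edgeR adjusted p = 0.0198). ACTA2, smooth muscle actin, whose locus overlaps STAMBPL1, FAS and an antisense gene on the other strand, stood at 15.5 and 0.956 CPM, 27.0 and 10.4 CPM, and 64.3 and 3.35 CPM in the same order of libraries. Its log2 difference was -3.03 (edgeR adjusted p = 0.0274). TAGLN, an actin-binding protein of contractile cells, stood at 56.7 and 9.95, 40.9 and 18.7, and 73.9 and 3.57 CPM. CD44, the hyaluronan receptor, differed least of the 8, by -1.18 on the log2 scale, and its ranges overlapped across treatments because TSA replicate 1 was at 19.6 CPM and E6R replicate 2 at 54.1 CPM.

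CCN2, a matrix-associated growth factor and one of the genes whose promoter is printed above, was highest under TSA: 28.3 and 9.49 CPM in TSA replicates 1 and 2, against 2.55 and 0.191 in DMSO and 3.85 and 0.226 under E6R. Its replicate ranges overlapped across treatments, while replicate 2 was lower within each (log2 difference -2.57, edgeR adjusted p = 0.0431). The related CCN1, another textbook YAP target, stood at 35.9 and 18.1 CPM under TSA, 7.44 and 0.383 in DMSO and 9.98 and 0.903 under E6R and did not pass (edgeR adjusted p = 0.0513). YAP1 itself stood at 3.82 and 1.15, 5.17 and 4.18, and 8.15 and 0.527 CPM in DMSO, TSA and E6R (edgeR adjusted p = 0.23). ANXA1, a phospholipid-binding annexin, stood at 5.95 and 0.191, 5.32 and 1.65, and 8.4 and 1.77 CPM, with ranges apart.

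The rest of the mesenchymal list was uneven. VIM, the intermediate filament usually used to mark the state, stood at 977 and 696 CPM in DMSO, 2840 and 1760 under TSA and 1652 and 1242 under E6R, a log2 difference of -0.53 that did not pass (edgeR adjusted p = 0.166). FN1, a matrix glycoprotein, stood at 114 and 19.3 CPM in DMSO and 200 and 13.1 CPM under E6R, but at 380 and 373 CPM under TSA. It did not pass either (log2 difference -2.18, edgeR adjusted p = 0.129). PRRX1, a transcription factor that defines the mesenchymal state, was not tested: it had 1 to 8 UMIs in each library. THY1, S100A6 and S100A11 had fitted differences of 0.05, 0.43 and 0.48 on the log2 scale, none of which passed.

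**Figure D1:**
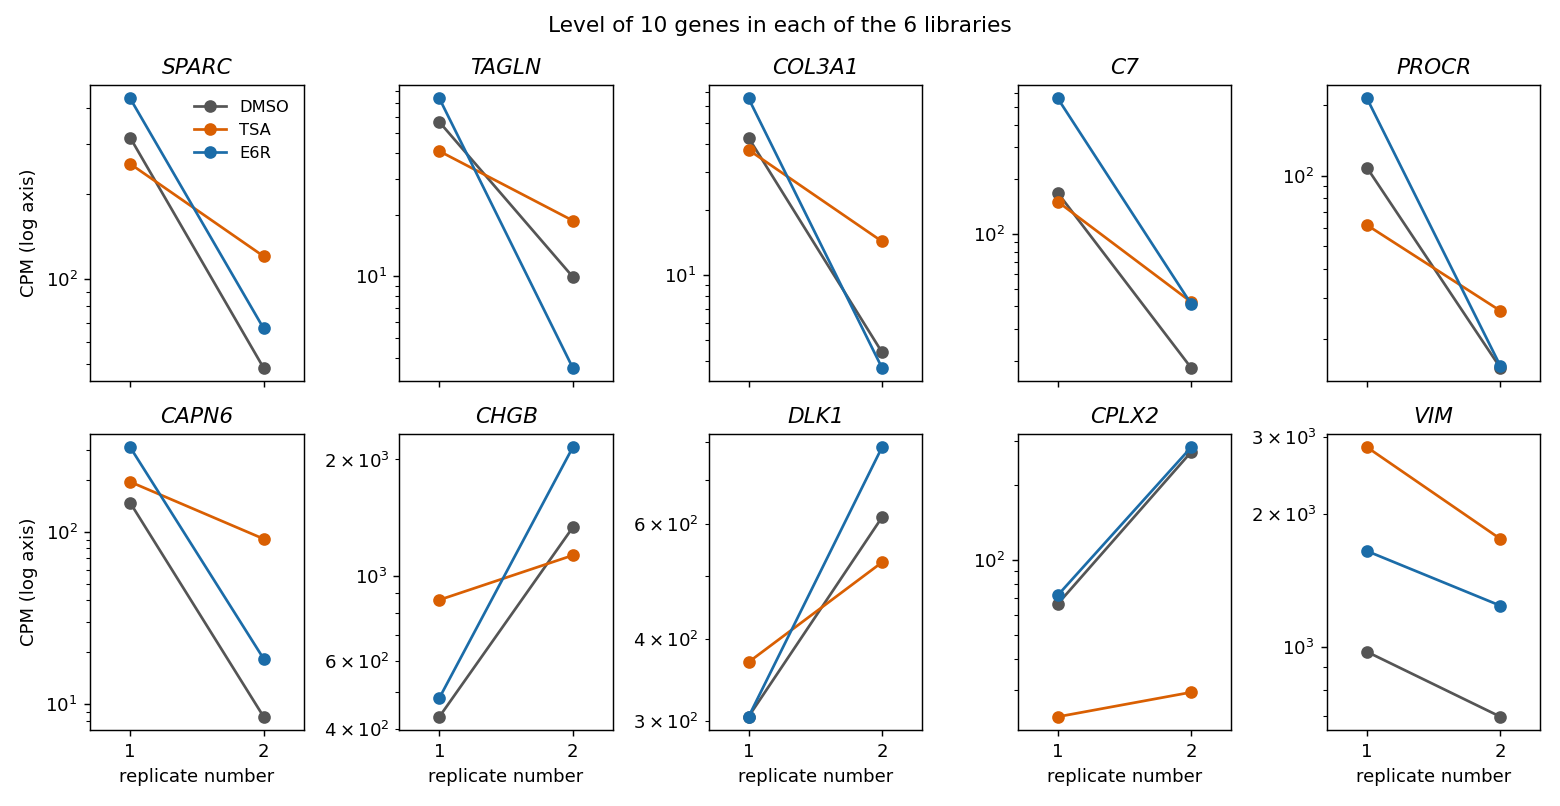
Level of 10 genes in CPM (log axis, scaled separately for each gene) against replicate number, with 1 point per library and a line joining the 2 libraries of a treatment. SPARC, TAGLN, COL3A1, C7, PROCR and CAPN6 lay lower in replicate 2 under all 3 treatments, CHGB, DLK1 and CPLX2 higher, and the TSA line was the flattest of the 3 for each of these genes.

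12 falls were named by a fixed rule: the largest among called genes with a mean of at least 20 CPM and the same direction under all 3 treatments. Among them were CAPN6, ACTA2, C7, COL3A1, PRSS23, TAGLN, PROCR, ISLR, P2RY1, FBN1 and CAVIN1, and the log2 differences of the 12 ran from -3.07 to -2.25. C7, a component of the terminal complement complex, stood at 168 and 18.4 CPM in DMSO, 151 and 42.3 under TSA, and 557 and 41.2 under E6R. Its ranges did not overlap, and its log2 difference was -2.93 (SE 0.319, edgeR adjusted p = 0.00691).

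CAPN6, a calpain-family protein without protease activity that binds microtubules, stood at 147 and 8.42 CPM in DMSO, 195 and 90.9 under TSA, and 310 and 18.3 under E6R (log2 difference -3.07, edgeR adjusted p = 0.029). PRSS23, a secreted serine protease, stood at 86.9 and 4.4, 30.6 and 17.1, and 92.2 and 8.54 CPM. For both genes all replicate 1 libraries lay above all replicate 2 libraries, and the TSA pair was the closest. ISLR, a protein of stromal cells, stood at 85.2 and 11.3, 31.4 and 11.5, and 109 and 14 CPM, again without overlap. P2RY1, a receptor for ADP, stood at 36.5 and 4.4, 6.46 and 3.31, and 73.1 and 8.88 CPM, and its ranges overlapped because both TSA libraries were low.

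PROCR, the endothelial protein C receptor, whose promoter is printed above, stood at 108 and 15.1 CPM in DMSO, 61.5 and 26.5 under TSA, and 213 and 15.4 under E6R (log2 difference -2.63, edgeR adjusted p = 0.0198). FBN1, the main protein of microfibrils, stood at 45.3 and 11.5, 38.1 and 17.8, and 67.1 and 5.15 CPM. CAVIN1, a coat protein of caveolae, stood at 323 and 40.0 CPM in DMSO and 220 and 25.2 under E6R, and at 297 and 204 under TSA. For each of these 3 genes all replicate 1 libraries lay above all replicate 2 libraries, and for CAVIN1 the TSA libraries differed by only -0.54 on the log2 scale.

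A set of endothelial markers was lower as well. Of 5 such genes, 4 were tested and 3 were called lower (VWF, EGFL7 and CDH5), with a median log2 difference of -3.14. Of all tested genes 0.764% were called lower. Leaving out DMSO replicate 1 or DMSO replicate 2 left 0 of the 4 called by edgeR, leaving out E6R replicate 1 left 1, and leaving out any of the remaining libraries gave 4. KDR, the main receptor for vascular endothelial growth factor, had 0 to 3 UMIs per library. The summed share of the 5 genes was 0.00445% to 0.0138% of UMIs in the replicate 1 libraries and 0.00197% to 0.00346% in the replicate 2 libraries. VWF, the clotting protein stored in endothelial cells, stood at 10.8 and 1.53 CPM in DMSO, 6.99 and 2.18 under TSA, and 11.1 and 1.32 under E6R, with ranges apart (log2 difference -2.51, edgeR adjusted p = 0.0207). EGFL7, a secreted factor of vessels, stood at 60.5 and 27.2, 36.7 and 18.2, and 71.5 and 19.6 CPM. CDH5, the cadherin of endothelial junctions, stood at 17.0 and 1.34 CPM in DMSO, 1.06 and 0.522 under TSA, and 26.8 and 0.188 under E6R. In TSA replicate 1 CDH5 was lower than in DMSO replicate 2, so its ranges overlapped. PECAM1, an adhesion molecule of the same junctions, stood at 21.7 and 1.15, 3.42 and 1.83, and 27.7 and 0.376 CPM. It did not pass the test (log2 difference -3.77, edgeR adjusted p = 0.0584).

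Other genes called lower and known from endothelial cells were picked here after their values were seen. TEK, the angiopoietin receptor, had 16 and 0 UMIs in DMSO replicates 1 and 2, 10 and 0 under TSA and 88 and 0 under E6R. CD34, a surface sialomucin of vessels and blood progenitors, had 36 and 1, 11 and 3, and 195 and 4 UMIs. APLNR, the apelin receptor, stood at 529 and 103 CPM in DMSO, 31.6 and 12.8 under TSA and 1008 and 265 under E6R (log2 difference -1.88, edgeR adjusted p = 0.00708). For these 3 genes the count or level was lower in replicate 2 under each treatment.

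The UMIs of VWF, CDH5, PECAM1 and KDR were concentrated in few cells. With no thinning, 22 of 1861 cells of DMSO replicate 1 held at least 3 of these UMIs, 11 of 2467 in TSA replicate 1 and 69 of 2891 in E6R replicate 1. The replicate 2 libraries had 0 of 3132, 2 of 3292 and 1 of 3946. The count of 0 allows a share of up to 0.0958% (3 counts of the total, counting error only). In cells thinned to 1000 UMIs, at least 1 such UMI was found in 4.04% and 0.595% of DMSO cells (Wilson 95% intervals 3.06 to 5.32 and 0.323 to 1.09), 0.864% and 0.502% of TSA cells (0.532 to 1.40 and 0.299 to 0.841), and 5.18% and 0.359% of E6R cells (4.33 to 6.19 and 0.182 to 0.707). These intervals cover counting error within 1 library and not the spread between libraries.

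The cells with at least 3 endothelial UMIs also carried the amplified oncogene of the line. MYCN stood at 682 CPM of those 22 DMSO cells' own UMIs, against 436 in cells with 0 endothelial UMIs, at 171 against 200 in TSA replicate 1, and at 779 against 704 in E6R replicate 1. HAND2 stood at 148 against 224, 116 against 241, and 120 against 287. Their median depth was 4001 UMIs against 1226 in DMSO, 10147 against 1682 in TSA and 11168 against 1711 in E6R. RNA free in the wells gives UMIs in any cell, and its part in these values was not tested.

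Markers of other cell types were mostly at low levels. For the calls below, 0.764% of all tested genes were called lower. Of 7 fibroblast genes, all tested, 2 were called lower (COL3A1 and LUM), with a median of -1.62 (edgeR called 0 on leaving out DMSO replicate 1 or DMSO replicate 2, and 5 on leaving out TSA replicate 1 or TSA replicate 2), and their summed share was 0.0155% to 0.0336% in replicate 1 and 0.00325% to 0.00829% in replicate 2. DCN, a proteoglycan of fibroblasts, stood at 56.9 and 1.91 CPM in DMSO, 63 and 29 under TSA, and 165 and 1.92 under E6R (edgeR adjusted p = 0.0611). Of 8 Schwann and neural crest genes 3 were tested and S100B was called lower (9.35 and 4.21, 12.9 and 4.79, and 15.5 and 5.08 CPM), while SOX10 had 0 to 3 UMIs per library. Of 6 epithelial genes 4 were tested and KRT18, a keratin, was called lower (42.5 and 3.63, 27.2 and 9.84, and 58.8 and 14.1 CPM). KRT19, another keratin, went the other way in DMSO (26.3 and 73.8 CPM) and E6R (42.2 and 94 CPM), stood at 10 and 9.4 CPM under TSA, and did not pass (log2 difference 0.89, edgeR adjusted p = 0.189). EPCAM stood between 0.304 and 1.27 CPM. Of 8 blood genes only CD74 was tested, and it was not called. The summed share of the blood list was at most 0.000542%.

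Adrenergic genes were called in both directions. Of 28, 26 were tested, 2 were called higher (DLK1 and CHGB) and 1 lower, with a median log2 difference of 0.16. Of all tested genes 0.209% were called higher and 0.764% lower. The list took 0.82% and 0.959% of UMIs in DMSO replicates 1 and 2, 0.519% and 0.559% under TSA, and 0.793% and 1.26% under E6R, a mean difference of 0.214 percentage points ± 0.221 (SD, n = 3 pairs; exact permutation p = 0.25). DESeq2 called 5 higher and 2 lower. Leaving out TSA replicate 1 or TSA replicate 2 gave 10 higher and 4 lower in edgeR's test, leaving out DMSO replicate 1 or DMSO replicate 2 gave 0, leaving out E6R replicate 1 gave 1 lower, and leaving out E6R replicate 2 gave 4 higher and 2 lower. CHGB, a granule protein of neuroendocrine cells (chromosome 20, 5911430 to 5925361), stood at 430 and 1334 CPM in DMSO, 864 and 1128 under TSA, and 481 and 2153 under E6R. All replicate 2 libraries were above all replicate 1 libraries, and the log2 difference was 1.40 (SE 0.282, edgeR adjusted p = 0.0472). DLK1, a membrane protein related to Notch ligands, stood at 305 and 614, 369 and 524, and 305 and 786 CPM, a log2 difference of 0.96 (edgeR adjusted p = 0.0446).

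The core factors named here did not pass: GATA3 stood at 170 and 120, 125 and 121, and 122 and 112 CPM (-0.22). HAND2 stood at 197 and 263, 255 and 355, and 274 and 279 CPM (0.31). SLC6A2, the noradrenaline transporter, stood at 226 and 555 CPM in DMSO and 140 and 435 under E6R but at 5.24 and 5.57 under TSA, and did not pass (edgeR adjusted p = 0.076). The enzymes of catecholamine synthesis showed the same contrast between treatments, which was not tested. DBH, which makes noradrenaline, stood at 194 and 724 CPM in DMSO and 224 and 1145 under E6R, but at 162 and 158 under TSA (edgeR adjusted p = 0.111). TH, the first enzyme of the pathway, stood at 30.4 and 77.8, 23.9 and 14.3, and 35.8 and 153 CPM. CHGA, the partner of CHGB in granules, was at 1660 and 658, 1908 and 2095, and 1301 and 1008 CPM (log2 difference -0.52, edgeR adjusted p = 0.434).

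Genes of neuronal maturation were mostly fitted higher but 1 of 22 passed. All 22 were tested, 17 had a fitted difference above 0 and 1 was called higher, where 0.209% of all tested genes were. An unadjusted p under 0.05 was found for 12, of which 1 was lower, and DESeq2 called 5 higher. Leaving out TSA replicate 1 or TSA replicate 2 gave 12 called higher by edgeR, leaving out DMSO replicate 1 or DMSO replicate 2 gave 0, and leaving out E6R replicate 1 or E6R replicate 2 gave 1 or 4. The median was 0.54, and within DMSO, TSA and E6R it was 0.85, 0.04 and 0.96. The list took 0.401% and 0.728% of UMIs in DMSO replicates 1 and 2, and 0.409% and 0.806% under E6R. Under TSA its share was lower in replicate 2, at 0.737% and 0.651%. Over the 3 pairs the exact permutation test gave a two-sided p of 0.5. NEFM, a neurofilament, and SYP, a synaptic vesicle protein, had differences of 1.02 and 1.05 and did not pass. Among the 12 named rises, CPLX2, which controls vesicle fusion, stood at 66.5 and 270 CPM in DMSO, 23.5 and 29.4 under TSA, and 72.0 and 282 under E6R (log2 difference 1.47, edgeR adjusted p = 0.0472). PTPRN, a protein of dense-core vesicles, stood at 30.0 and 165, 110 and 146, and 23.0 and 87.4 CPM, and DPYSL5, a regulator of axon growth, at 17.0 and 56.8, 55.4 and 83.8, and 10.9 and 77.0 CPM.

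**Figure D2:**
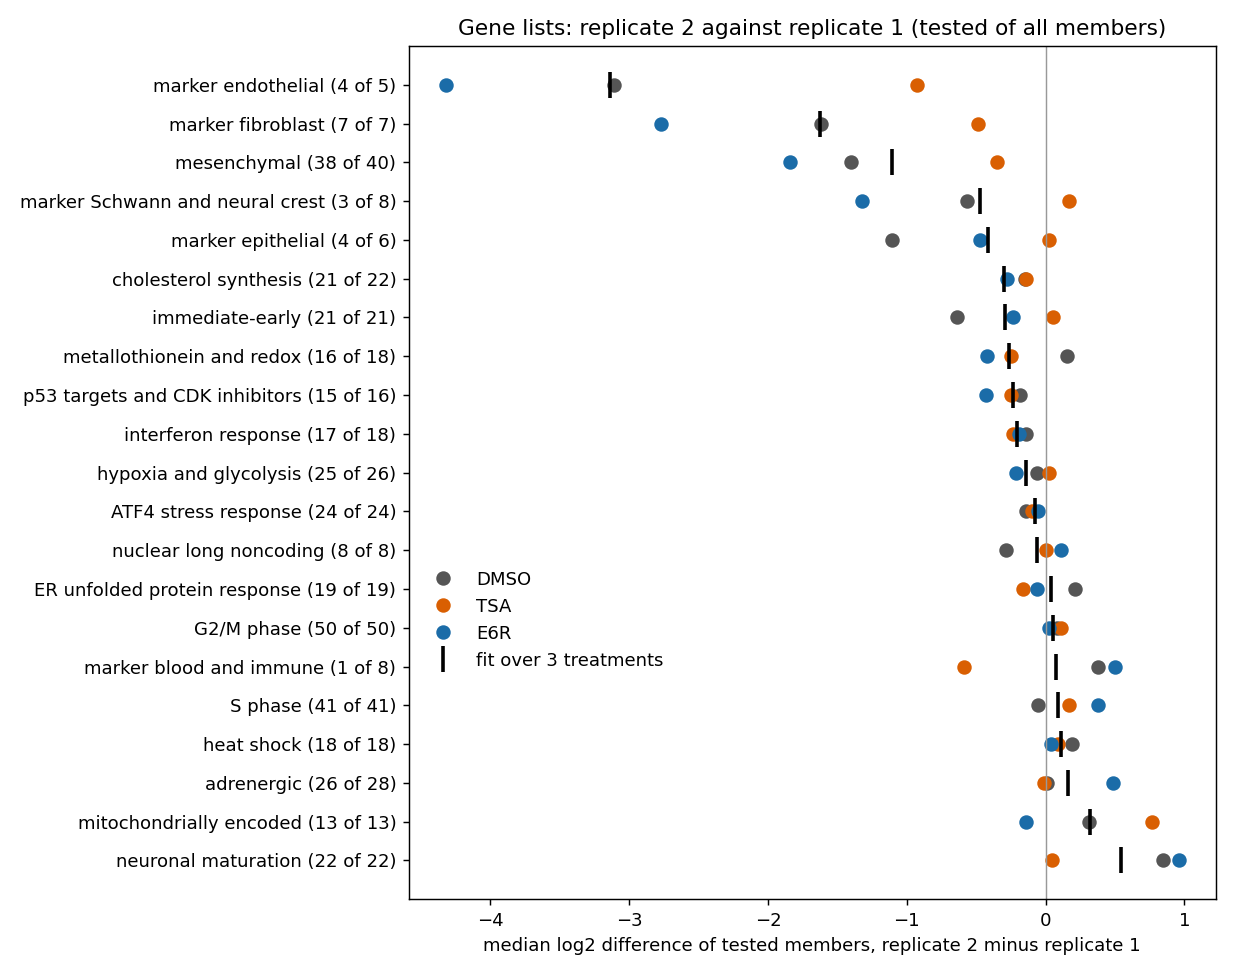
Median log2 difference, replicate 2 minus replicate 1, of the tested members of each gene list (coloured points, within each treatment; black bars, median of the fitted values), with the number tested of all members. The endothelial, fibroblast and mesenchymal lists lay lowest, at -3.14, -1.62 and -1.11, and the neuronal list highest at 0.54, with the TSA point nearest to 0 in each of these 4.

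Several of the other named rises were transcripts that lie over abundant genes on the opposite strand: MIF-AS1 over MIF, AC011603.2 over TUBA1B, AC093484.3 over UBB and AC006064.4 over GAPDH. MIF-AS1 stood at 4.04 and 21.6 CPM in DMSO, 24.6 and 61.7 under TSA, and 3.6 and 15 under E6R (log2 difference 1.85, edgeR adjusted p = 0.0151). The partner MIF had a log2 difference of 0.44 (edgeR adjusted p = 0.262), and the differences of TUBA1B, UBB and GAPDH were -0.10, -0.00097 and -0.28, none of which passed. The strand rule of the authors' counting is not given in the sources used here, so reads of the paired genes cannot be told apart. Of the 35 genes called higher, 11 (31.4%) had only a clone name, against 11% of the genes tested and 0 of the genes called lower.

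Genes of the cell cycle did not pass the test. Of 41 S phase and 50 G2/M genes, all tested, edgeR called 0 in either direction and DESeq2 also 0; 2 and 3 of them had an unadjusted p under 0.05. The medians were 0.09 and 0.05. With TSA replicate 1 or TSA replicate 2 left out, edgeR called 0 S phase genes and 1 G2/M gene, which was higher. MKI67, a nuclear protein of dividing cells, stood at 738 and 694 CPM in DMSO, 501 and 675 under TSA, and 567 and 626 under E6R (log2 difference 0.16, edgeR adjusted p = 0.8). PCNA, the clamp of DNA polymerase, had a difference of 0.04 and TOP2A, topoisomerase II, of 0.26. CDKN1A, the p21 inhibitor of cyclin-dependent kinases, stood at 20.4 and 95.1 CPM in DMSO and 29 and 87.4 under E6R, but at 128 and 87.4 under TSA (edgeR adjusted p = 0.32).

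The spread of cycle genes over single cells did differ in each pair. In cells thinned to 1000 UMIs, the S and G2/M lists together gave a median of 12 and 14 UMIs per cell in DMSO, 12 and 13 under TSA, and 13 and 16 under E6R. The 10th percentile of cells was 3 and 8, 3 and 7, and 4 and 7 UMIs. Cells with 2 or fewer cycle UMIs made up 8.26% and 0.773% of DMSO cells (Wilson 95% intervals 6.82 to 9.96 and 0.452 to 1.32), 5.89% and 0.61% of TSA cells, and 4.68% and 2.29% of E6R cells. The mean difference over the 3 treatments was -5.05 percentage points ± 2.55 (SD, n = 3 pairs; exact permutation test, two-sided p = 0.25, the smallest that 8 assignments allow). This threshold, like the one on mesenchymal UMIs below, was set after the distributions had been seen.

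Cells with 8 or more UMIs of the mesenchymal list, VIM left out, made up 16.1% and 2.32% of thinned DMSO cells, 11% and 2.83% of TSA cells, and 25.2% and 5.75% of E6R cells. Between 2.19% and 13.5% of a library's cells held 7 or 8 such UMIs, directly at the threshold, so the group is a range and not a type. The mean difference was -13.8 points ± 5.68 (SD, n = 3 pairs; exact permutation p = 0.25). Within replicate 1, cells with 2 or fewer cycle UMIs were 18.8% of the mesenchymal-high cells and 6.22% of the others in DMSO, 15.8% and 4.67% under TSA, and 10.1% and 2.86% under E6R. Within replicate 2 these shares were 2.56% and 0.73%, 3.8% and 0.517%, and 11.7% and 1.71%. The mesenchymal-high cells had the larger share in all 6 libraries. In replicate 2 they numbered only 39 in DMSO, 79 under TSA and 128 under E6R, so the DMSO and TSA shares there rest on very few cells.

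Phase calls also put fewer replicate 2 cells in G1. They gave 28.5% and 8.86% of thinned DMSO cells in G1, 24.6% and 7.14% of TSA cells, and 19.8% and 11.9% of E6R cells; without thinning these were 21.6% and 5.14%, 22.5% and 4.28%, and 15.2% and 6.84%. The mean difference was -15 points ± 6.24 (SD, n = 3 pairs; exact permutation p = 0.25). G2M was called in 51.0% and 79.7%, 64.7% and 80.8%, and 51.3% and 56.0%. S phase had no common direction: 20.6% and 11.5%, 10.7% and 12.1%, and 29% and 32.1%. Free RNA adds to such calls, its amount was not measured, and no cycling rate is read from them.

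**Figure D3:**
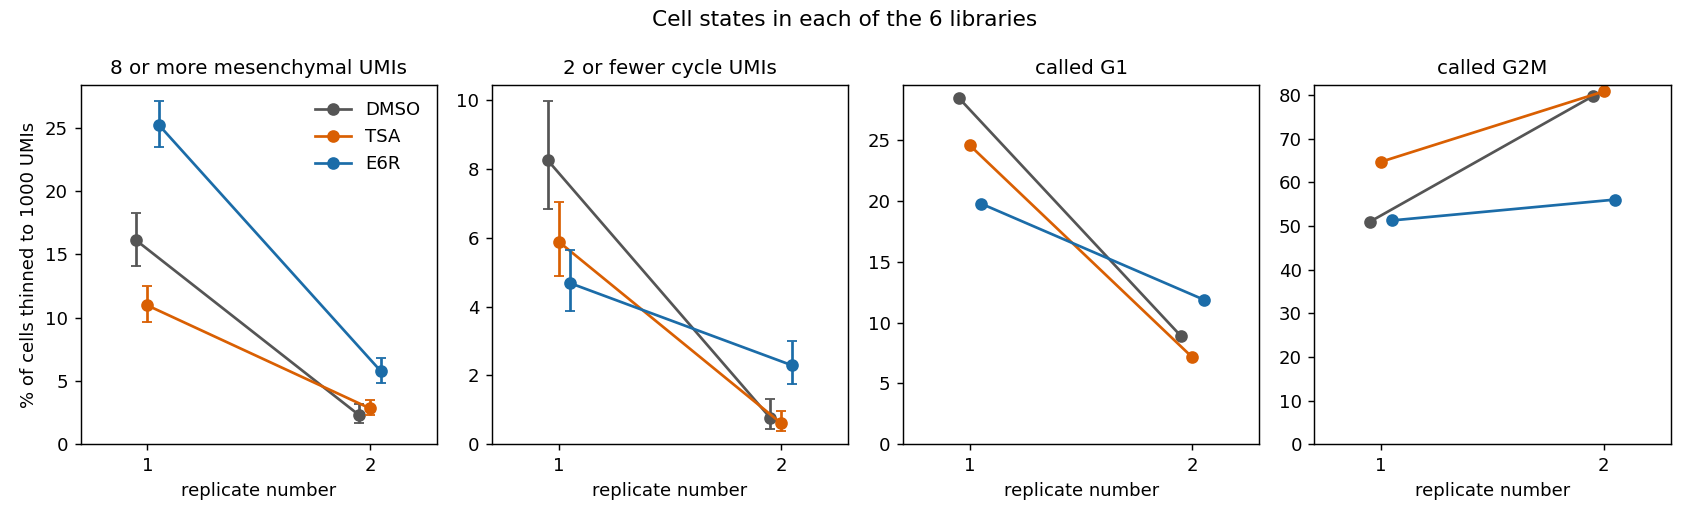
Percent of cells, each thinned to 1000 UMIs, with 8 or more mesenchymal UMIs, with 2 or fewer cycle UMIs, called G1 and called G2M, against replicate number (bars in the first 2 panels: Wilson 95% intervals, counting error only). In the first 3 panels replicate 2 lay lower under all 3 treatments, for example 2.32% against 16.1% of DMSO cells in the first, and in the fourth it lay higher.

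No stress gene passed with all libraries in the fit. EdgeR called 0 of 18 heat shock genes (median 0.11), 0 of 24 ATF4 stress genes (-0.08), 0 of 19 genes of the unfolded protein response of the endoplasmic reticulum (0.04) and 0 of 21 immediate-early genes (-0.29). In these lists 1, 4, 0 and 3 genes had an unadjusted p under 0.05, and DESeq2 called 1 gene in all, an ATF4 stress gene that was lower. With TSA replicate 1 or TSA replicate 2 left out, edgeR called 5 immediate-early genes lower and 1 higher. In the same fits it called 2 ATF4 stress genes lower and 1 higher, and 0 in the other lists of this paragraph. HSPA1A, an inducible chaperone, stood at 27.6 and 25.4 CPM in DMSO, 75.3 and 34.8 under TSA, and 31.0 and 27.1 under E6R. HSPA5, the chaperone of the endoplasmic reticulum, had a log2 difference of 0.05 and DDIT3 of 0.32. ATF4 itself stood at 392 and 186, 260 and 193, and 314 and 213 CPM, lower in each replicate 2 library than in any replicate 1 library, but did not pass (log2 difference -0.69, edgeR adjusted p = 0.111).

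Metabolic genes rarely passed. Of 21 tested genes of cholesterol synthesis 18 were fitted lower, with a median of -0.30 and 0 called; SC5D, a late enzyme of the pathway, came nearest (54.6 and 37.5, 48.2 and 23.1, and 92.4 and 43.6 CPM, edgeR adjusted p = 0.0513). Of 25 tested genes of hypoxia and glycolysis 1 was called lower, PFKP, a phosphofructokinase: 59.3 and 33.3 CPM in DMSO, 65.9 and 38.9 under TSA, and 90.4 and 46.5 under E6R (log2 difference -0.85, edgeR adjusted p = 0.0472). EdgeR called 0 of 15 tested p53 targets and CDK inhibitors, 16 redox genes, 17 interferon genes, 8 nuclear long noncoding genes and 13 mitochondrially encoded genes, with medians of -0.24, -0.26, -0.21, -0.06 and 0.32. In these 5 lists 5, 3, 3, 1 and 3 genes had an unadjusted p under 0.05, and DESeq2 called 1 interferon gene lower and 1 mitochondrial gene higher. 6 cholesterol genes had such a p and DESeq2 called 3 of that list lower. With TSA replicate 1 or TSA replicate 2 left out, edgeR called 5 cholesterol genes lower. In the same fits it called 1 gene lower and 2 higher among p53 targets and CDK inhibitors. It also called 2 redox, 2 interferon and 1 nuclear long noncoding genes lower. All 13 mitochondrial genes were fitted higher, with a median of 0.77 within TSA, where the mitochondrial share differed most. Their median was 0.31 within DMSO and -0.14 within E6R, and only 4 of the 13 were higher in replicate 2 under all 3 treatments.

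The replicate differences of DMSO and E6R were the most alike. Across 7515 genes with a mean of at least 20 CPM, which are not independent, the log2 differences correlated with r = 0.242 (rho = 0.182) between DMSO and TSA, 0.564 (0.331) between DMSO and E6R and 0.166 (0.0815) between TSA and E6R. The sign was the same for 55.8%, 59.0% and 51.9% of genes. The 3 differences share no library.

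To read the difference in libraries that had not chosen the genes, the 50 genes with the largest drop in replicate 2, taking the smaller drop of 2 treatments, were read in the remaining treatment. Levels were log2(CPM + 2), and the minimum mean of 20 CPM was taken over all libraries, those of the treatment read among them. They were lower there for 48 of 50 genes in DMSO, 48 of 50 in TSA and 48 of 50 in E6R, with median log2 differences of -1.30, -0.63 and -1.62, against -0.04, -0.15 and -0.01 over all 7510 genes read. The 50 genes highest in 2 treatments were higher in the remaining one for 40 of 50 in DMSO, 26 of 50 in TSA and 38 of 50 in E6R (medians 0.58, 0.09 and 0.58). Genes are not independent of each other, and the lists of the treatments share members, C7, COL3A1 and SPARC among the lower ones. The counts of genes are therefore not replicates, and each treatment gives 1 pair of libraries. In single thinned cells, the lower lists made up a median of 0.5% and 0.2% of UMIs in DMSO, 0.3% and 0.2% in TSA and 0.9% and 0.3% in E6R. The chance that a replicate 1 cell had the larger share, with tied cells split evenly between the libraries, was 0.785, 0.631 and 0.869. For the higher list in E6R the share of UMIs went against the count of genes. Its median share in single cells was 1.9% in replicate 1 and 1.6% in replicate 2. A share weighs genes by their abundance and the count does not, and the list's share of the library sums was not computed.

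**Figure D4:**
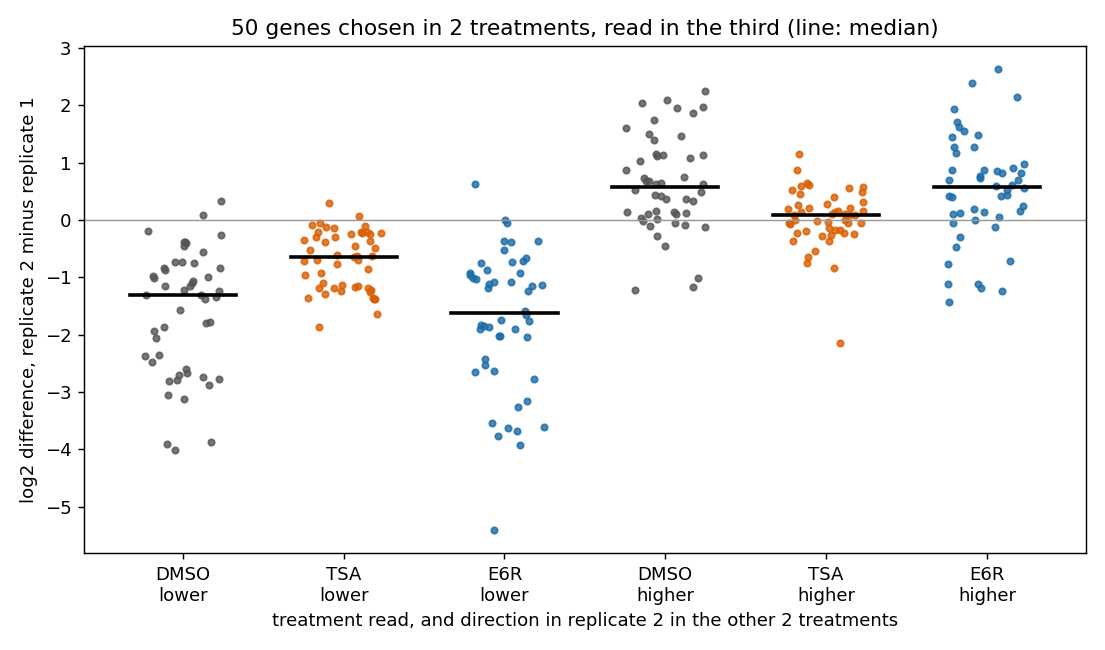
Log2 difference, replicate 2 minus replicate 1, of the 50 genes chosen as lower or as higher in replicate 2 in 2 treatments, read in the remaining treatment (1 point per gene, black line at the median, points spread sideways for legibility). The lower sets lay below 0 for 48 of 50 genes in every treatment, while the higher set was split around 0 in TSA, with 26 of 50 above.

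The cells of the 2 libraries of a treatment were nearly separate in DMSO and E6R. With 1187 thinned cells per library and 15 nearest neighbours in 20 principal components, 92.3% and 97.3% of a DMSO cell's neighbours came from its own library, 93.9% and 94.3% of an E6R cell's, and 69.1% and 80.8% of a TSA cell's. In TSA replicate 1, 414 of 1187 cells (34.9%) had most neighbours in replicate 2, against 45 (3.8%) the other way. In the remaining libraries at most 2.8% of cells did.

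The replicate number also bore on the treatment comparisons. With no term for it, edgeR called 4975 genes (29.7%) between TSA and DMSO and 0 (0%) between E6R and DMSO (2913 at an unadjusted p under 0.05). With the replicate number as a block it called 6047 (36.1%) and 19 (0.113%), and 4947 genes of the TSA comparison were called in both fits.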

How the data were processed

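The deposited matrices held whole-number UMI counts per gene and barcode, not normalized; per the submitters' processing notes the authors used STARsolo 2.7.9a and GRCh38. Annotation, strand rule and barcode selection are not given in the sources used here. Coordinates came from GENCODE 29, which held 34616 (94.6%) of the 36601 gene IDs, and promoters from RefSeq (GRCh38.p14).

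Per library, the UMIs of all cells were added up and tested with edgeR 4.0.16 (R 4.3.3): quasi-likelihood test, TMM, filterByExpr, treatment as a block, Benjamini-Hochberg at 0.05 over all tested genes. The biological coefficient of variation was 0.219, with 2 residual and 9.06 prior degrees of freedom. On simulated counts for 16763 genes the test recovered 54% of 100 2-fold and 100% of 100 4-fold changes, with 4.35% false calls. The changed genes were drawn only from genes above a minimum mean count, and every gene was given the same dispersion. The recovery rates therefore do not cover genes with few UMIs, and unequal dispersions were not simulated. In the measured libraries the size of the difference varied between treatments, and whether these rates hold there was not tested. Cells were thinned at random to 1000 UMIs, which left out the cells with fewer (503 to 1718 per library), and phases were called with scanpy 1.11.5. Doublets were not called; an alternative dropped the top 5% of cells by UMIs. Intervals and floors reflect counting error alone. Library sums of 4206366 to 26180262 UMIs make rare genes the least precise.

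The 3 pair correlations of the within-treatment differences were all above 0.1, and equal numbers were treated as pairing the libraries. In cells called S the correlation between TSA and E6R was 0.0302. With 3 pairs, arbitrary numbers could also give correlations above 0, so these values cannot show that equal numbers belong together. The labels do not state a shared culture. Members and gene lists were chosen with earlier results of these data known. Named genes were the 12 largest rises and falls, the 4 members of each list with the smallest p, and 18 set genes; 113 in all. Some named genes are not reported here. Alternatives changed the normalization, tool, filter, block, cell thresholds, depth, phase and libraries. The one without shared barcodes was chosen after seeing the data. DESeq2 1.42.0 served as an alternative.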

Additional observations from a re-analysis of the deposited data

Results flagged for a closer look

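Barcodes with fewer than 500 genes, which entered only the alternatives with a lower gene minimum or with all barcodes, held list UMIs above both DMSO libraries in 6 cases. The mesenchymal list took 0.559% of UMIs in TSA replicate 1, 0.658% in E6R replicate 1 and 0.474% in E6R replicate 2, against 0.436% and 0.359% in DMSO replicates 1 and 2. The endothelial markers took 0.0128% in E6R replicate 1, against 0.0125% and 0.00275% in DMSO. In E6R replicate 2 the adrenergic list took 1.27% and the neuronal list 0.781%, against at most 0.906% and 0.681% in DMSO. In these small barcodes too, the mesenchymal share was lower in replicate 2 under each treatment (0.559% and 0.345% under TSA). Whether small barcodes hold free RNA or broken cells was not tested.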

How the results depend on the processing

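edgeR's count of 163 called genes was 463 with DESeq2, 871 with no filter on low counts, 0 without the treatment block (382 at an unadjusted p under 0.05), 61 with cells of 1000 or more genes, 83 in cells called S and 10 in cells called G2M. It ranged from 0 (without DMSO replicate 1) to 1360 (without TSA replicate 2) when 1 library was left out. The lower share of calls, 78.5%, was 66.3% with DESeq2, 62.5% with no filter, 62.9% with equal numbers of thinned cells, 62.7% in S cells and 88.5% with cells of 1000 or more genes. Of 477 recomputed list medians 28 moved by more than 1 SD of the 3 treatments' medians. The interferon median moved to -0.29 with no treatment block or with sums thinned to the smallest library, -0.13 with cells of 300 genes or with equal numbers of thinned cells, -0.44 in G1 cells, -0.28 in S cells and -0.11 in G2M cells. The G2/M median moved to 0.12 without the 5% of cells with the highest counts, 0.14 with equal numbers of thinned cells and in S cells, 0.58 in G1 cells and -0.16 in G2M cells. That of the ATF4 list moved to -0.021 in thinned sums, 0.22 in G1 cells, 0.0082 in S cells and -0.12 in G2M cells. The epithelial median moved to 0.38 with no filter and 0.28 in S cells, the cholesterol one to -0.21 with equal numbers of thinned cells, the S phase one to 0.46 and the p53 one to -0.52 in G1 cells, and the adrenergic one to 0.46 in S cells. With 1 library left out, the p53 median ranged from -0.40 to -0.20, the cholesterol median from -0.34 to -0.22 and the interferon median from -0.25 to -0.13. In thinned cells the mean replicate difference in the share of UMIs was -0.000828 percentage points for the Schwann list and -0.0016 for the epithelial list. The cause of these moves was not tested. The mesenchymal median was below 0 in all 23 alternatives, and each of the 35 named genes that passed kept its direction in the alternatives that gave it a value. The alternatives reuse the same libraries, so neither result is separate support. With the replicate block edgeR called 19 genes between E6R and DMSO and 6047 between TSA and DMSO. The correlations of the pairs cannot show that the pairing behind this block holds. With 1 library left out and no block, the count was 0 to 3 for E6R and 1416 to 6028 for TSA. Depth limits what can be said of genes with a few UMIs per library.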

Other observations

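Among called genes that the text has not described, chosen after their values were seen, PRCP, a lysosomal carboxypeptidase, had the smallest adjusted p in edgeR's test (0.00477). It stood at 419 and 112 CPM in DMSO replicates 1 and 2, 260 and 88.2 under TSA, and 651 and 157 under E6R. TEAD2, a DNA-binding partner of YAP, stood at 15.5 and 1.72 CPM in DMSO, 2.28 and 0.784 under TSA and 34.2 and 5.15 under E6R. COL4A2, a basement membrane collagen, stood at 30 and 3.83, 17.5 and 5.22, and 29.7 and 3.69 CPM.

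In the other direction, the replication-dependent histone gene HIST1H4C stood at 177 and 303 CPM in DMSO, 575 and 1130 under TSA and 464 and 747 under E6R, and RPL41, a ribosomal protein gene, at 651 and 1360, 1743 and 3234, and 1028 and 1698 CPM. The log2 differences of HIST1H4C within DMSO, TSA and E6R were 0.77, 0.97 and 0.69, and those of RPL41 were 1.06, 0.89 and 0.72.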
